A study of Homo sapiens with 4 samples.

Results

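Genes of immune checkpoints and of the CD47 "don't eat me" signal were read in tumours grown from MCF10DCIS.com cells in mice. The 9 genes are CD274 and CD47, read as human rows in human barcodes, and Cd274, Pdcd1lg2, Cd80, Cd86, Havcr2, Vsir and Sirpa, read as mouse rows in mouse barcodes. They are 9 of 68886 genes in the count matrices, chosen by name with earlier results of these data known. MCF10DCIS.com is a human cell line that forms lesions like ductal carcinoma in situ of the breast. The cells were grown on decellularised mammary matrix (dECM) of mice and implanted 12 days after seeding, and the tumour with its adjacent stroma was taken 4 weeks later. In the aged pool the matrix came from mice of 18 months or more, and in the young pool from mice of 2 to 3 months. Both matrices went into opposite fat pads of the same Rag1-/- recipient, whose own age the labels do not give, so the pools differ by the age of the matrix donor and not of the host. Rag1-/- mice make no mature T or B cells, so the lymphocytes that use many of these ligands and receptors are largely missing from the host in both pools.

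Each pool was 1 single-cell expression library, with 1 antibody library beside it. No difference between the pools therefore has a replicate check, and no p-value is given. Intervals are 95% and cover counting error only. Per the study's design text, 3 of the samples were sequenced, and no label ties a barcode to an animal. After filtering, 2001 human cells of the aged pool and 2125 of the young pool had median depths of 30455 and 30942 human UMIs (unique molecular identifiers, counted transcripts). The 12924 mouse cells of the aged pool and 11946 of the young pool had medians of 2261 and 2285.5 mouse UMIs. The pools had 190 barcodes in common, carried by 157 of the 28996 kept cells.

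PD-L1, encoded by CD274 and in the mouse by Cd274, and PD-L2, encoded by Pdcd1lg2, are ligands of the inhibitory receptor PD-1. CD80 and CD86 give the second signal to T cells through CD28 and are captured by the inhibitory receptor CTLA-4; TIM-3 (Havcr2) and VISTA (Vsir) are checkpoint proteins of myeloid cells as well as of lymphocytes. CD47 on a cell binds SIRP-alpha (Sirpa) on macrophages, neutrophils and dendritic cells and restrains phagocytosis. PD-L1 transcription is known to be raised by interferon-gamma, by NF-kappa-B and by hypoxia-inducible factor, in myeloid cells as in tumour cells.

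The 2 human genes differ in the letters of their promoters, which are shown because the human tumour cells carried one transcript in most cells and the other in few. Each window runs from 250 bases before to 50 bases after the RefSeq start (GRCh38.p14), 5′ to 3′ on the gene's strand. CD274 (ENSG00000120217; GRCh38 chr9:5450503-5470566, plus strand) has the window chr9:5450292-5450591, and CD47 (ENSG00000196776; chr3:108043094-108091862, minus strand) the window chr3:108090982-108091281. Capitals mark every match on either strand to 2 copies of GAAA with 2 free bases between them (the core of an interferon response element), TTCNNNGAA (a palindrome of cytokine response elements), GGGCGG (a GC box) and ACGTG (the core of a hypoxia response element).
CD274: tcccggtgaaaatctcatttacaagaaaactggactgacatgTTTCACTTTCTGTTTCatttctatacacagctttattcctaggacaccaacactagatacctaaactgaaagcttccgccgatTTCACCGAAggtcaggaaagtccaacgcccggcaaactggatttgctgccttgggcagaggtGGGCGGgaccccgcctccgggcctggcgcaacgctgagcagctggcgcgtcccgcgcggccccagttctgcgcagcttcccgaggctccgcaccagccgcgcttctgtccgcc
CD47: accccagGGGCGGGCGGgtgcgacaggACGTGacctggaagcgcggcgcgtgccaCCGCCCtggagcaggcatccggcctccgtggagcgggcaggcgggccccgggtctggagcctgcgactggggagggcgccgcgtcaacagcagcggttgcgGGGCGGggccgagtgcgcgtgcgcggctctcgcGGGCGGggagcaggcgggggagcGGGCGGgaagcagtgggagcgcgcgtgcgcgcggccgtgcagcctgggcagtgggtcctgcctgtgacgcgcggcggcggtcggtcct
The CD274 window held 2 overlapping matches to the GAAA pair, at bases -208 to -199 and -202 to -193 from the start, and 1 to TTCNNNGAA at -125 to -117. The CD47 window held neither motif. Among 35116 RefSeq human promoters of the same length, 3.57% held the GAAA pair and 7.66% held TTCNNNGAA. CD47 had 6 matches to GGGCGG, CD274 had 1, and 45.0% of the promoters held that motif. ACGTG was matched 1 time in CD47, at -223 to -219, and not in CD274, against 21.4% of all promoters. A match is a string of letters in this window and not a site shown to be used.

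In the tumour cells CD47 was read throughout and CD274 was close to the limit of detection. CD47 had 6078 UMIs in the aged pool and 6885 in the young pool, or 78.6 and 85.5 CPM (UMIs of the gene scaled to a common total of human UMIs in these cells). With every cell thinned to 2000 UMIs, 14.3% of aged and 14.1% of young tumour cells had a CD47 UMI, and unthinned 76.6% and 77.2% did. In mouse barcodes, which should hold no human CD47, 0.797% of aged and 0.871% of young cells had a CD47 UMI. The aged over young ratio of CD47 was 0.919 (0.888 to 0.951). It was under the 1.5-fold used to say that a gene stood apart, a size that 0.221% of the 5424 measured genes of tumour cells reached in either direction; a gene was measured with 20 CPM or more in the higher pool and 100 UMIs or more over both.

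CD47 differed more between tumour states than between the pools. The states are 14 clusters of tumour cells named here by their leading genes, and their levels are a description. CD47 was highest in the state led by PLAT, CXCL14 and IL24, with 127 CPM in the aged and 129 CPM in the young pool. The MMP1 and MMP9 state, whose genes encode matrix metalloproteinases, followed with 105 and 115 CPM, and the IGFL1 and SBSN state had 96.9 and 97.2 CPM. Mitotic cells led by ASPM and CENPF were near the middle, with 79.0 CPM in the aged and 80.4 CPM in the young pool. Levels were lower in the CCN2 and ADM state, with 59.0 and 57.1 CPM, and lowest in the aged pool in the shallow HSPA6 state, with 44.0 and 56.6 CPM at a median of 6803 UMIs a cell. The lowest in the young pool was another shallow state, led by CSTA and KRT6A at a median of 4573.5 UMIs, with 71.0 CPM in the aged and 54.3 CPM in the young pool. The highest state was 2.89-fold over the lowest in the aged pool and 2.37-fold in the young pool. Of the 13 states in which CD47 was measured, it was lower in the aged pool in 11 and higher in 2, with ratios between 0.777 and 1.03. The cells could also be split by human hashing tag, which no label ties to an animal. CD47 had 91.1, 78.7 and 79.5 CPM in the 3 aged tag sets, of 509, 183 and 173 cells. The 3 young sets, of 140, 530 and 114 cells, had 94.0, 76.2 and 106 CPM. Most of the 2001 aged and 2125 young tumour cells were in none of these sets. Among the tagged cells the sets of the pools overlapped, and the range within the young pool was wider than the difference between the pools.

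**Figure D1:**
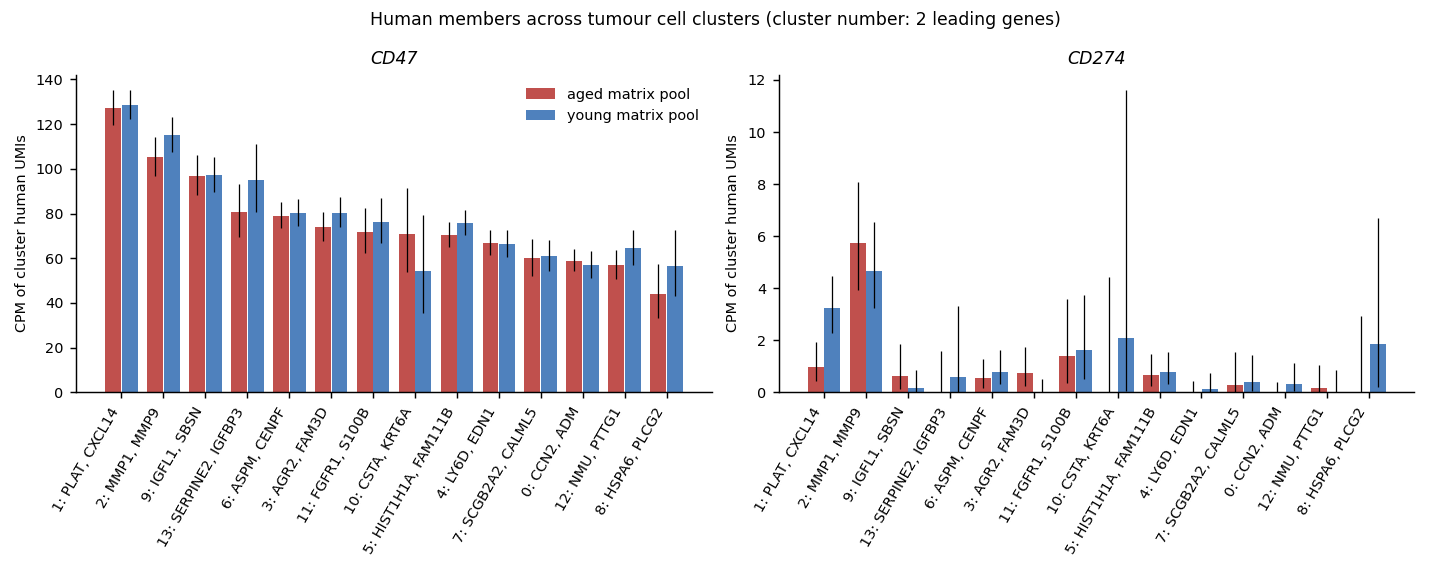
CD47 and CD274 in CPM of human UMIs (horizontal axes) in each tumour state, by pool, with exact Poisson 95% intervals for counting error. CD47 was highest in the PLAT and CXCL14 state in both pools (127 CPM aged, 129 CPM young), and CD274 was under 6 CPM in every state.

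CD274 had 65 UMIs in 42 aged tumour cells and 101 UMIs in 72 young ones, or 0.841 and 1.25 CPM, which was too low to be measured by the rule above. A single cell held 19 of the 65 aged UMIs, and another held 17 of the 101 young ones. Mouse barcodes held 1 CD274 UMI in 12924 aged and 3 in 11946 young cells, and in barcodes at least 99% mouse it was read in 0 of 1948 aged and 0 of 1472 young ones. Of tumour cells 2.10% of the aged and 3.39% of the young had a CD274 UMI, above these shares. The MMP1 and MMP9 state held 32 of the aged and 34 of the young UMIs, in 11 and 15 cells, at 5.73 and 4.68 CPM. In the PLAT and CXCL14 state 8 aged and 37 young UMIs, in 7 and 27 cells, gave 0.978 and 3.25 CPM. By these counts only the MMP1 and MMP9 state could hold the cells with 19 and 17 UMIs. Its level therefore rested largely on 1 cell in each pool, and the level without that cell was not computed. The remaining states were at or below 2.09 CPM. The MMP1 and MMP9 state also had the highest summed level of the hypoxia and glycolysis list in tumour cells, 11602 CPM in the aged and 10926 CPM in the young pool, and of the interferon list, 832 and 839 CPM.

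Other ligands of the CD28 and B7 family and of related checkpoints were measured in the tumour cells. Of 27 listed ligands 10 were measured and 0 stood apart. Only 0.221% of all measured genes of tumour cells stood apart, so a count of 0 here or in the lists below is no result about the genes. B7-H3 (CD276) had 58.1 CPM in the aged and 57.3 CPM in the young pool, nectin-2 (NECTIN2) 60.2 and 59.4 CPM, and B7-H4 (VTCN1) 29.3 and 26.5 CPM. PD-L2 (PDCD1LG2) had 20 UMIs in the aged and 35 in the young pool, CD80 had 1 and 0, and CD86 had 0 in each. Of 13 listed genes of the CD47 axis and phagocytosis 9 were measured and 0 stood apart. CD24, another signal against phagocytosis, had 1024 and 1007 CPM, and CALR, the calreticulin that promotes it, had 434 and 451 CPM. Of 27 listed regulators of PD-L1 20 were measured and 0 stood apart; IRF1 was at the upper end with 96.9 CPM in the aged and 84.5 CPM in the young pool. CMTM6, which keeps PD-L1 protein from degradation, had 65.5 and 65.7 CPM.

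Host cells were mostly neutrophil-like, and the 7 mouse genes fell into myeloid classes with different leading classes. Neutrophil-like cells made up 76.5% of the kept mouse cells in the aged and 79.9% in the young pool, and held 32.2% and 35.8% of their UMIs. Monocyte-like cells were 5.62% and 4.98%, and macrophage-like cells 3.95% and 4.01%. NK-like cells were fewer, at 1.91% and 1.20%. Stromal cells were fibroblast-like, at 7.88% and 5.42%, or endothelial-like, at 0.936% and 1.04%. The classes were named from marker genes by a rule set after the clusters were seen. Of all host UMIs of Cd274, 88.3% in the aged and 88.8% in the young pool lay in neutrophil-like cells, and of Pdcd1lg2 88.3% and 89.9%. For Cd80 the shares were 74.6% and 72.7%. Cd86 was instead found mostly in monocyte-like cells, with 37.5% and 38.04%, and in macrophage-like cells, with 36.2% and 34.7%. Monocyte-like cells also held the most UMIs of Havcr2, 39.6% in the aged and 35.5% in the young pool.

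**Figure D2:**
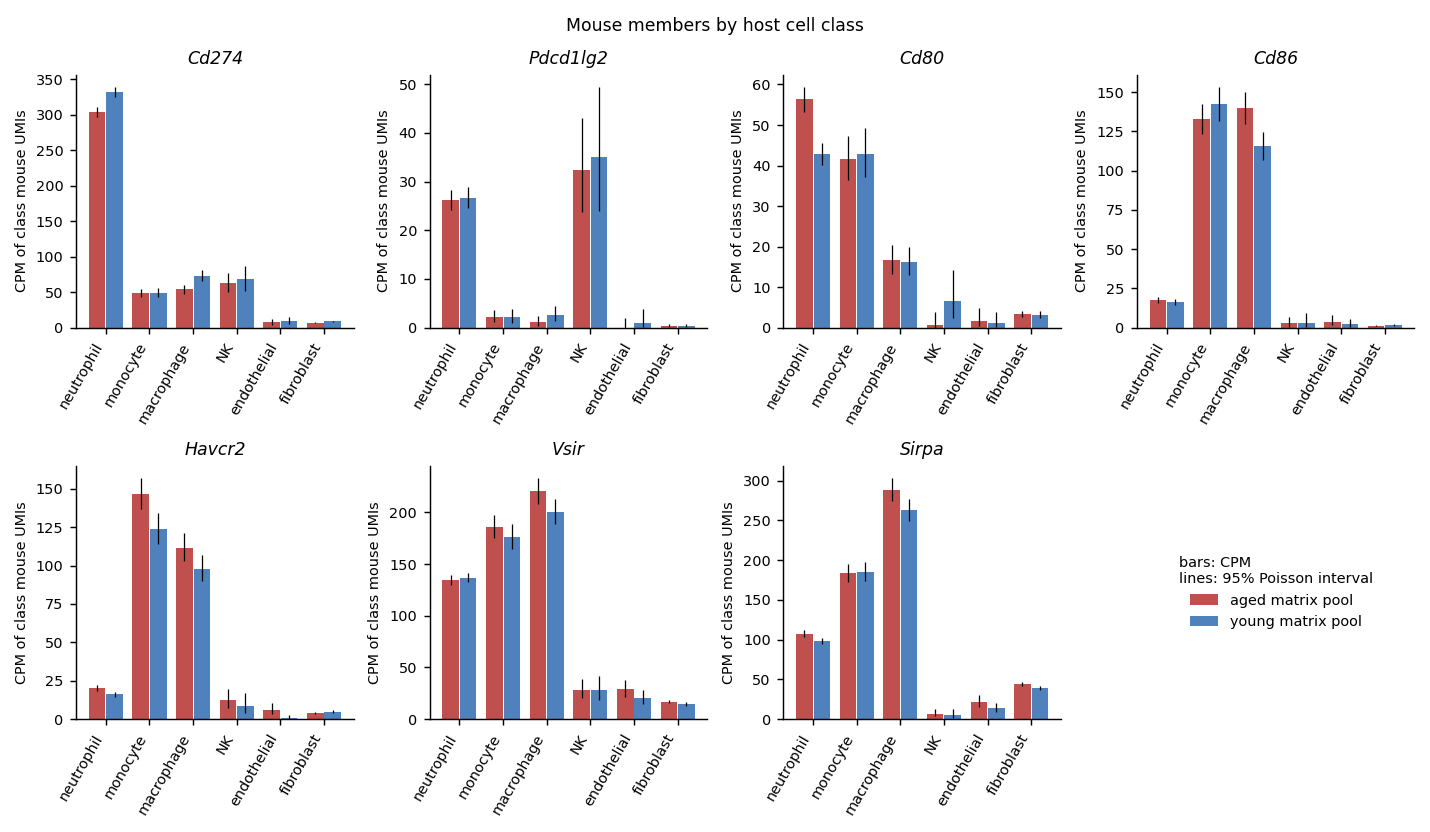
Level of each mouse gene in CPM of mouse UMIs (log axis) in the host cell classes, aged left of young, with exact Poisson 95% intervals. Cd274, Pdcd1lg2 and Cd80 are at their highest or near it in neutrophil-like cells, and Cd86, Havcr2, Vsir and Sirpa in macrophage-like or monocyte-like cells.

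PD-L1 transcript was concentrated in neutrophil-like cells. Cd274 had 6959 UMIs in aged and 7741 in young neutrophil-like cells, or 304 and 332 CPM. Macrophage-like cells had 54.0 and 73.4 CPM, monocyte-like cells 48.6 and 49.2 CPM, and NK-like cells 62.7 and 67.9 CPM. The stroma had little of it, with 7.20 CPM in aged and 8.76 CPM in young fibroblast-like cells and 7.63 and 9.38 CPM in endothelial-like ones. How much of the lower values is free RNA depends on the barcodes used to measure it. Human barcodes, which should hold no mouse transcript, carried a Cd274 UMI in 6.997% of aged and 7.34% of young barcodes. The UMIs per human barcode came to 41.1% of those per NK-like cell in the aged and 34.8% in the young pool, and to 27.3% of those per aged macrophage-like cell. In aged and young endothelial-like cells they came to 131% and 104%. Taken from barcodes at least 99% human, with medians of 195 aged and 176 young mouse UMIs, they came to 7.57% and 4.75% in NK-like, 5.03% and 2.52% in macrophage-like and 24.1% and 14.2% in endothelial-like cells. The level in endothelial-like cells was therefore above free RNA by one measure and not by the other. In neutrophil-like cells thinned to 2000 UMIs, 25.8% of aged and 30.1% of young cells had a Cd274 UMI.

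PD-L2 transcript was read in neutrophil-like and NK-like cells and at a low level elsewhere. Pdcd1lg2 had 599 UMIs in aged and 622 in young neutrophil-like cells, or 26.2 and 26.7 CPM, and 47 and 32 UMIs in NK-like cells, or 32.4 and 35.1 CPM. Monocyte-like cells had 2.11 CPM in each pool. The UMIs per human barcode were 5.25% of those per NK-like cell in the aged and 5.05% in the young pool, and under 1% of them by the barcodes at least 99% human, at 0.488% and 0.368%. PD-1 itself (Pdcd1), the receptor of both ligands, had 0 UMIs in aged and 0 in young neutrophil-like cells, and 39 and 12 UMIs in NK-like cells. Among monocyte-like cells it had 2 aged and 0 young UMIs, and among macrophage-like cells 0 aged and 5 young UMIs.

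Within the neutrophil-like cells both PD-1 ligands peaked in the same state. These cells formed 10 states, and Cd274 and Pdcd1lg2 were among the genes that set the clusters, so the levels by state are a description. In the state led by Plcxd2, Ccdc126, Cd274 and Hilpda, Cd274 had 1085 CPM in the aged and 999.5 CPM in the young pool. Hilpda encodes a lipid droplet protein induced by hypoxia. The Ciart and Ddit3 state followed with 547 and 537 CPM, where Ddit3 encodes a stress response factor. The interferon state led by Rsad2 and Ifit1 had 387 and 381 CPM, the stefin state led by Stfa2 had 354 and 448 CPM, and the Il23a and Tnf state 333 and 359 CPM. Cells led by Cxcl3 and Fpr1 had 256 and 239 CPM, and cells led by Sh2d3c and Osgin1 113 and 138 CPM. Levels were lower in the Retnlg and Prok2 state, with 87.7 and 110.4 CPM, in the immature granule state led by Ngp, Camp and Ltf, with 59.7 and 68.4 CPM, and in the Tnfaip2 and Cxcr2 state, with 51.8 and 59.2 CPM. The highest state was 20.9-fold over the lowest in the aged and 16.9-fold in the young pool. With clusters made without the 9 genes and the listed checkpoint genes, the state led by Plcxd2 and Hilpda had 1044 CPM in the aged and 865 CPM in the young pool, 18.4-fold and 13.01-fold over the lowest. After thinning to 2000 UMIs, 64.6% of aged and 72.9% of young cells of the Plcxd2 and Hilpda state had a Cd274 UMI, against 8.86% and 8.70% in the Tnfaip2 and Cxcr2 state.

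**Figure D3:**
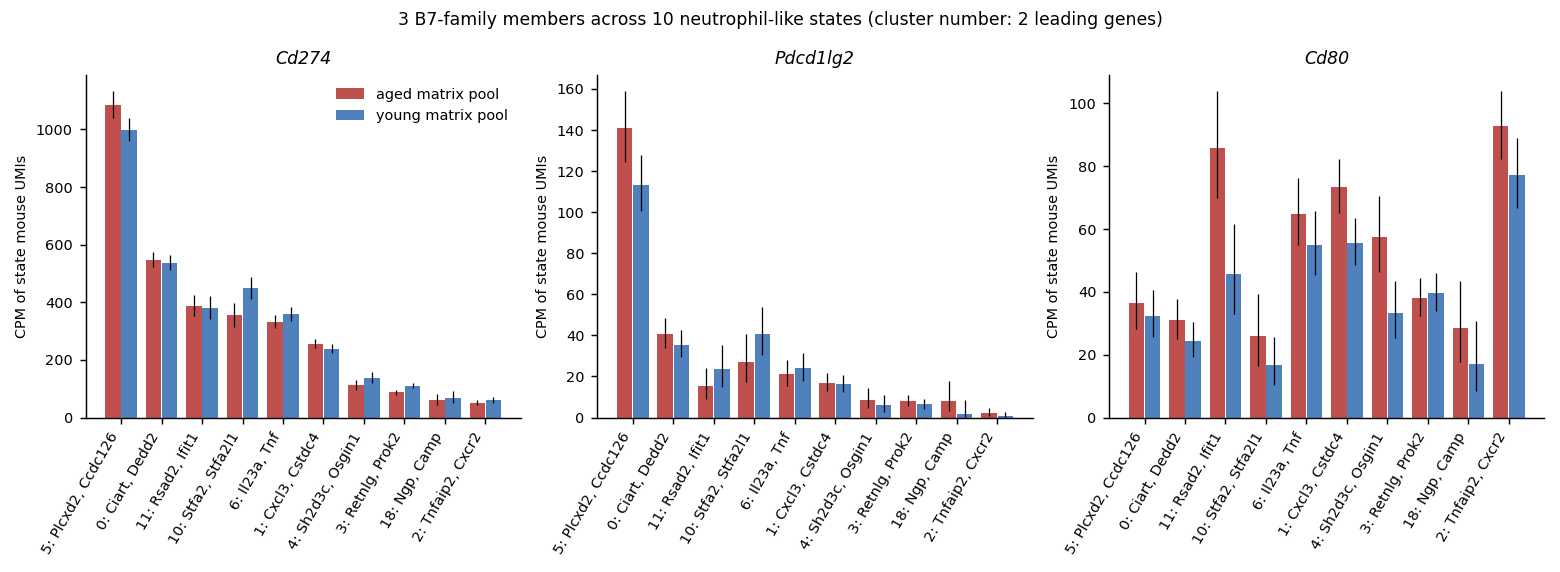
Level of each mouse gene in CPM of mouse UMIs in the 10 neutrophil-like states, aged left of young, with exact Poisson 95% intervals. Cd274 and Pdcd1lg2 are highest in the Plcxd2 and Hilpda state (Cd274 1085 CPM aged, 999.5 CPM young), Cd80 and Sirpa in the Tnfaip2 and Cxcr2 state, Havcr2 in the Il23a and Tnf state.

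Pdcd1lg2 had 259 UMIs in the aged and 276 in the young Plcxd2 and Hilpda state, or 141 and 113 CPM. The Ciart and Ddit3 state had 40.7 and 35.4 CPM, the stefin state 27.2 and 40.9 CPM and the Il23a and Tnf state 21.0 and 23.9 CPM, while the Tnfaip2 and Cxcr2 state had 2.18 and 0.800 CPM. Clusters made without these genes gave 135 CPM in the aged and 97.3 CPM in the young pool for the highest state. The pair was also read in the same cells. Of neutrophil-like cells with a Pdcd1lg2 UMI, 63.9% of the aged and 66.3% of the young also had a Cd274 UMI, against 27.3% and 30.8% of the cells without one. Inside the Plcxd2 and Hilpda state the shares were 76.5% and 77.7% with a Pdcd1lg2 UMI and 65.7% and 70.9% without one. There the cells with a Pdcd1lg2 UMI were deeper, with medians of 2117 aged and 2155 young UMIs, against 1656 and 1883 in cells without one, and the part of depth in this difference was not tested.

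Across the 10 neutrophil-like states Cd274 went up with the summed level of the hypoxia and glycolysis list. The summed level of the hypoxia list was 22108 CPM in the aged and 22078 CPM in the young Plcxd2 and Hilpda state, and 3941 and 4193 CPM in the Tnfaip2 and Cxcr2 state. Pearson's r of Cd274 with this sum over the 10 states was 0.935 in the aged and 0.961 in the young pool, as a description of states that share a library and a clustering. Spearman's rho was 0.915 and 0.964. With clusters made without the checkpoint genes r was 0.945 and 0.956 and rho lower, 0.697 in each pool. The genes of the hypoxia, interferon and neutrophil lists were left in that clustering, so it is no independent check of a relation with these lists. The interferon list had its highest sum in the Rsad2 and Ifit1 state, 12350 and 11519 CPM, where Cd274 was at 387 and 381 CPM, against sums of 763 and 841 CPM in the Plcxd2 and Hilpda state. The next highest interferon sum was 2069 CPM in the aged and 1987 CPM in the young Sh2d3c and Osgin1 state. With 1 state so far above the rest, the r of this list with Cd274 can show neither a relation nor its absence. It was -0.01 in each pool. The list of neutrophil immaturity gave -0.40 and -0.41, and the inflammatory list 0.14 and 0.11. For Pdcd1lg2 the r with the hypoxia sum was 0.884 in the aged and 0.932 in the young pool.

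**Figure D4:**
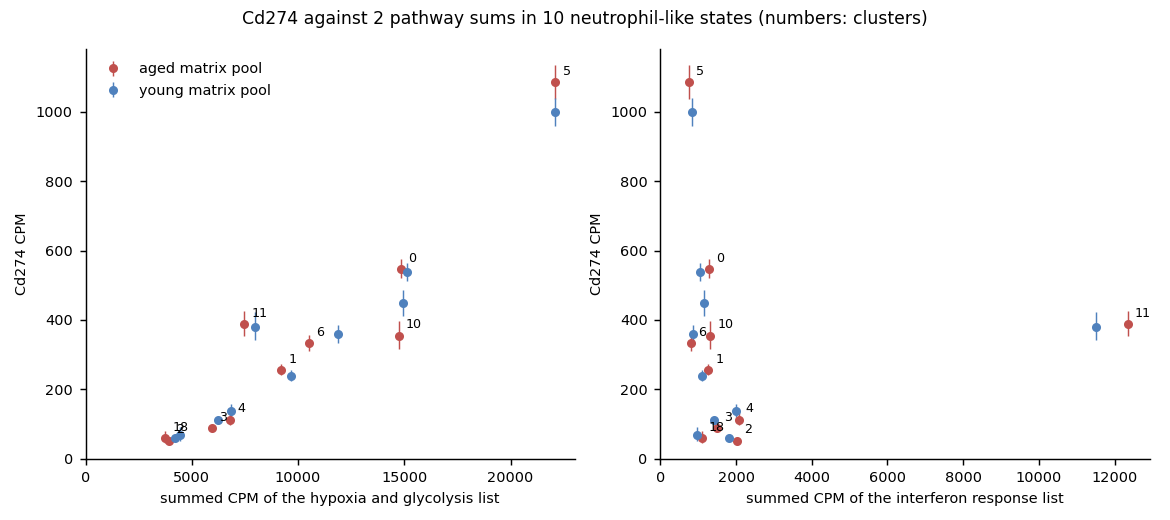
Cd274 in CPM against the summed CPM of pathway lists over the 10 neutrophil-like states, 1 point per state and pool. Cd274 goes up with the hypoxia and glycolysis sum (r 0.935 aged, 0.961 young). The interferon sum (r -0.01 in each pool) is high in 1 state only.

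The CD28 ligands were carried by different myeloid cells. Cd80 had 1289 UMIs in aged and 999 in young neutrophil-like cells, or 56.3 and 42.8 CPM, and 41.6 and 42.9 CPM in monocyte-like cells. Macrophage-like cells had 16.6 and 16.2 CPM. Among the neutrophil-like states Cd80 was highest in the Tnfaip2 and Cxcr2 state, with 92.7 CPM in the aged and 77.2 CPM in the young pool, which was the state lowest in Cd274. The interferon state had 85.7 and 45.7 CPM, the Cxcl3 and Fpr1 state 73.4 and 55.7 CPM and the Il23a and Tnf state 64.8 and 54.9 CPM. The Plcxd2 and Hilpda state had 36.4 and 32.5 CPM, and the stefin state 26.0 and 16.8 CPM. Cd80 had an r of 0.639 in the aged and 0.754 in the young pool with the inflammatory list over the 10 states, and of -0.44 and -0.35 with the hypoxia list.

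Cd86 was at 139.8 CPM in aged and 115.5 CPM in young macrophage-like cells and at 133 and 142 CPM in monocyte-like cells. Neutrophil-like cells had 17.7 and 16.3 CPM and no state of them exceeded 26.0 CPM in the aged or 22.3 CPM in the young pool. Only 3.52% of aged and 3.61% of young neutrophil-like cells had a Cd86 UMI, and 1.60% and 1.46% of human barcodes did, or 0.465% and 0.165% of those at least 99% human. Finer clusters split the macrophage-like cells. Those led by C1qa and C1qb had 179 CPM of Cd86 in the aged and 164 CPM in the young pool, and those led by Mmp12, Arg1 and Pf4 had 85.4 and 78.7 CPM. Cd274 went the other way between them, with 30.6 and 34.1 CPM in the C1qa cells and 86.8 and 104 CPM in the Mmp12 and Arg1 cells. A cluster led by the class II genes H2-Aa and Cd74, left unnamed, had 166 CPM of Cd86 in the aged and 185 CPM in the young pool. The receptor genes Cd28 and Ctla4 were read in NK-like cells, Cd28 with 173 aged and 76 young UMIs and Ctla4 with 22 and 10. Ctla4 had 0 UMIs in neutrophil-like cells of each pool. The NK-like cells also had a summed level of 718 CPM in the aged and 656 CPM in the young pool for the T cell marker list. That list includes Cd28 itself. Of its 10 markers 5 had 20 CPM or more in each pool, and 3 were at 0.

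As whole classes, mononuclear phagocytes had the highest levels of TIM-3 and VISTA transcripts. For VISTA single neutrophil-like states came near these levels or passed them, and for TIM-3 only a finer cluster did. Havcr2 had 147 CPM in aged and 124 CPM in young monocyte-like cells, 112 and 98.02 CPM in macrophage-like cells, and 20.2 and 16.1 CPM in neutrophil-like cells. Among the neutrophil-like states the Il23a and Tnf state was highest, with 92.9 and 72.7 CPM, against 33.7 and 27.6 CPM in the Tnfaip2 and Cxcr2 state and 3.55 and 3.10 CPM in the Retnlg and Prok2 state. Finer clusters gave a pair with these leading genes. The cells led by Tnf and Gpr84, 516 aged and 310 young ones, had 173 and 172 CPM of Havcr2, above both whole classes of mononuclear phagocytes. At the same finer clustering the unnamed H2-Aa and Cd74 cluster had 185 CPM in the aged and 162 CPM in the young pool. The cells led by Il23a and Il1a had 60.2 and 52.8 CPM. Cd274 was lower in the Tnf and Gpr84 cells, with 103 and 112 CPM, than in the Il23a and Il1a cells, with 378 and 364 CPM. Havcr2 had been among the genes that set the clusters. Vsir was read in every neutrophil-like state. It had 220.4 CPM in aged and 200.2 CPM in young macrophage-like cells, 186 and 176 CPM in monocyte-like cells and 134 and 137 CPM in neutrophil-like cells, where the states spanned 80.4 to 213 CPM in the aged and 81.2 to 261 CPM in the young pool. The immature Ngp and Camp state was at the top of both ranges, near the macrophage-like level in the aged pool and above it in the young pool. Vsir was read in endothelial-like cells too, with 28.9 and 20.3 CPM.

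SIRP-alpha transcript was found across phagocytes and in fibroblasts. Sirpa had 289 CPM in aged and 263 CPM in young macrophage-like cells, 184 and 185 CPM in monocyte-like cells, 107 and 98.002 CPM in neutrophil-like cells, and 43.8 and 39.2 CPM in fibroblast-like cells. The C1qa macrophage-like cells had 322 and 300.1 CPM. An unnamed cluster led by the osteoclast genes Acp5 and Ctsk had 235 CPM in the aged and 231 CPM in the young pool. Among neutrophil-like states it was highest in the Tnfaip2 and Cxcr2 state, with 155 and 144 CPM, followed by 122 and 116 CPM in the Retnlg and Prok2 state, and lowest in the stefin state, with 73.2 and 63.3 CPM. Sirpa has closely similar relatives, so its counts are uncertain where reads could be shared; Sirpb1a had 54.9 and 46.4 CPM, Sirpb1b 48.7 and 54.3 CPM and Sirpb1c 117 and 127 CPM in neutrophil-like cells. Its mouse ligand Cd47 was read in the host as well, with 251.5 CPM in aged and 242 CPM in young neutrophil-like cells, 296 and 320 CPM in macrophage-like cells and 474 and 499 CPM in fibroblast-like cells.

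Some other genes had patterns much like these over 40 points of host cluster and pool, or over 28 points of tumour cluster and pool, which share libraries and clustering. By Pearson's r of log2(CPM + 1), Cd274 was most like Ccl3 (0.951), Map3k8 (0.950003) and Tmem189 (0.948). Pdcd1lg2 was most like Cd274 (0.901), Cd80 most like Il1b (0.963), Cd86 most like Fcgr2b (0.921), Havcr2 most like Mpeg1 (0.868), Vsir most like Itgam (0.942) and Sirpa most like Cfp (0.846). In tumour cells CD47 was most like IL4R (0.856), TMED9 (0.855) and ATP2B4 (0.854).

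Between the pools no mouse gene stood apart in any host class. The 9 genes gave 20 measured class ratios, CD47 in tumour cells included, and 0 of the 20 reached 1.5-fold. Without the 157 cells whose barcode was in both pools, these ratios lay between 0.747 and 1.31. Of all measured genes, 0.552% reached it in neutrophil-like, 1.9% in macrophage-like, 1.12% in monocyte-like, 4.25% in fibroblast-like, 4.3% in NK-like and 4.62% in endothelial-like cells. Beside shares this small, a count of 0 is no result about these genes.

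Cd274 was lower in the aged pool in each of the 4 classes where it was measured. The ratio was 0.736 (0.629 to 0.860) in macrophage-like cells, on 283 aged and 391 young UMIs, and 0.916 (0.886 to 0.946) in neutrophil-like cells. In NK-like and monocyte-like cells it was 0.924 (0.662 to 1.30) and 0.987 (0.826 to 1.18), with intervals that include 1. Several values moved with the macrophage-like ratio. The Mmp12 and Arg1 cells, higher in Cd274, were 152 in the aged and 217 in the young pool, and within them and within the C1qa cells the ratio was 0.837 (0.695 to 1.01) and 0.898 (0.659 to 1.23). The 12 neutrophil markers, all of them detected, summed to 3936 CPM in aged and 5635 CPM in young macrophage-like cells, against 178106 and 187340 CPM in neutrophil-like cells. Without the macrophage-like cells highest in S100a8 and S100a9 Cd274 was at 51.2 and 63.7 CPM, a ratio of 0.804. Their full part in the difference was not tested.

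In neutrophil-like cells the lower Cd274 ratio went with a different mix of states. The Plcxd2 and Hilpda state was 8.97% of aged and 10.0% of young neutrophil-like cells, and the stefin state 3.67% and 5.34%, while the Tnfaip2 and Cxcr2 state, lowest in Cd274, was 15.7% and 12.4%. With the states given equal weights in both pools the ratio was 0.995. Cd274 was among the genes that set these states, so equal weights can by themselves take out a Cd274 difference. The part of the mix was not tested. Within states it lay between 0.791 and 1.09, under 1 in 6 of 10 and over 1 in 4. Pdcd1lg2 had a ratio of 0.981 (0.875 to 1.10) over all neutrophil-like cells and of 1.24 (1.04 to 1.48) in the Plcxd2 and Hilpda state.

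Cd80 was the gene with the largest ratio of aged over young, 1.31 (1.21 to 1.43) in neutrophil-like cells, against 0.969 in monocyte-like cells. It was higher in the aged pool in 9 of the 10 states, all except the Retnlg and Prok2 state, where it had 38.1 CPM in aged and 39.7 CPM in young cells. It passed 1.5-fold in 2 states in which it was measured. In the interferon state the ratio was 1.87 (1.30 to 2.74) on 102 aged and 43 young UMIs, where 2.98% of the measured genes passed that size. In the Sh2d3c and Osgin1 state it was 1.72 (1.22 to 2.44), where 2.08% of the genes did. With equal weights for the states the ratio was 1.25. Each state comes from the same pair of libraries, so the 9 states are no replicates of the pool.

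Cd86 had a ratio of 1.21 (1.09 to 1.35) in macrophage-like cells and of 0.932 (0.839 to 1.04) in monocyte-like cells. For Havcr2 it was 1.19 (1.07 to 1.32) in monocyte-like, 1.14 (1.01 to 1.29) in macrophage-like and 1.25 (1.09 to 1.44) in neutrophil-like cells. In the unnamed Acp5 and Ctsk cluster both genes passed 1.5-fold, Cd86 with 44.0 CPM in the aged and 24.3 CPM in the young pool and Havcr2 with 43.4 and 26.9 CPM; 6.74% of the measured genes did so there. Vsir had ratios of 1.10 in macrophage-like, 1.06 in monocyte-like and 0.980 in neutrophil-like cells. The ratio of Sirpa was 1.10 (1.02 to 1.18) in macrophage-like, 1.10 (1.03 to 1.16) in neutrophil-like, 1.12 (1.02 to 1.23) in fibroblast-like and 0.991 in monocyte-like cells. It was higher in the aged pool in 10 of 10 neutrophil-like states, by at most 1.19-fold. These ratios are of the size that another scaling can move. TMM scaling shifted all neutrophil-like ratios by 0.11 on the log2 scale and set Sirpa there at 1.02, Havcr2 at 1.16 and Cd80 at 1.22.

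**Figure D5:**
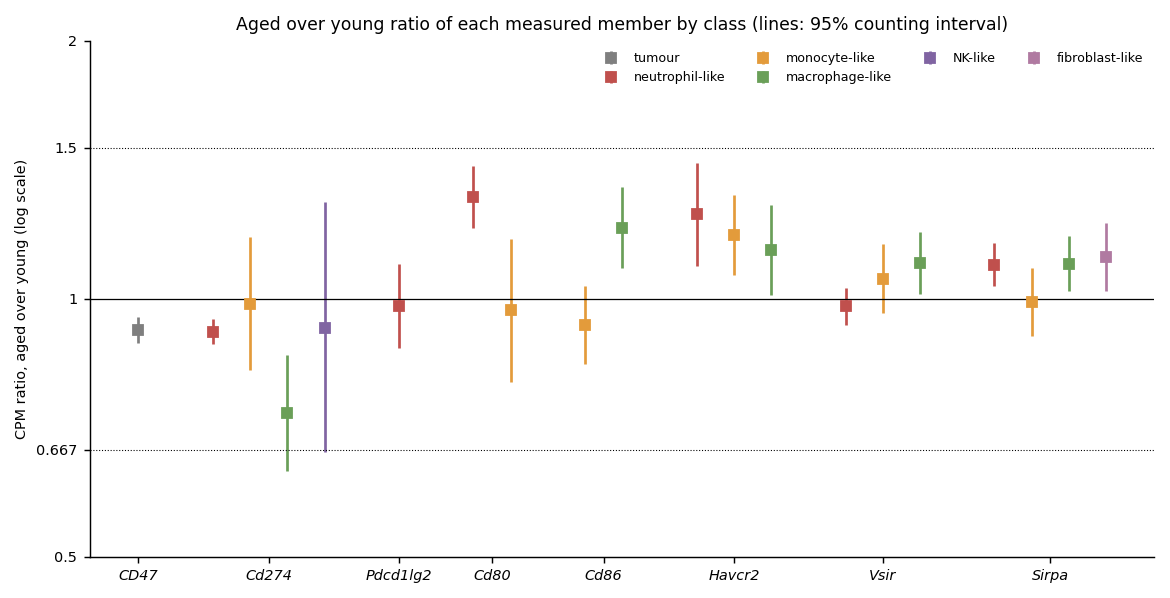
Aged over young ratio (log axis) of each measured gene in each cell class, with exact 95% intervals for counting error, and lines at 1 and at 1.5-fold in either direction. The 20 ratios lie between 0.736 (Cd274, macrophage-like) and 1.31 (Cd80, neutrophil-like), inside the 1.5-fold lines.

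The listed partners of these genes gave 0 calls in neutrophil-like and macrophage-like cells in each of 4 lists. Of all measured genes 0.552% and 1.9% stood apart there, so these counts of 0 are no result about the lists. Lists of other pathways gave some calls. In neutrophil-like cells 4 of 14 genes of the CD28, B7 and PD-1 family, 9 of 18 of the CD47 and SIRP-alpha axis, 19 of 26 regulators of PD-L1 and 10 of 25 other inhibitory receptors and ligands were measured, and 0 stood apart in each list. Their median log2 ratios were -0.03, 0.10, 0.04 and 0.03, beside 0.05 over all measured genes. At the upper end of the regulators were Tnf, with 303 CPM in the aged and 228 CPM in the young pool, and Nfkb1, with 94.9 and 71.9 CPM. In macrophage-like cells the same 4 lists had 4, 14, 20 and 11 measured genes and again 0 apart. The hypoxia and glycolysis list there had 5 of 18 measured genes lower in the aged pool by 1.5-fold or more. Of all measured genes 1.9% stood apart. Among the 5 was the glucose transporter Slc2a1, with 141 CPM in aged and 216 CPM in young cells. Another was Bnip3, which is induced by hypoxia and encodes a mitochondrial protein, with 214 and 339 CPM. The median log2 ratio of this list was -0.43, beside 0.02 over all measured genes. The inflammatory list, made for inflammatory neutrophils, had 3 of 20 measured genes lower in macrophage-like cells. Neutrophil markers in these cells summed to 3936 CPM in the aged and 5635 CPM in the young pool. The part of neutrophil RNA in the count was not tested. In neutrophil-like cells 2 of 19 measured genes of the list were higher, where 0.552% of all measured genes stood apart. In monocyte-like cells, where 1.12% of all measured genes stood apart, 1 of 21 measured regulators of PD-L1 did. It was Il10, an inhibitory cytokine, which was higher in the aged pool with 30.2 CPM, against 16.5 CPM in the young pool. In fibroblast-like cells 2 of 20 measured regulators stood apart, Myc with 55.7 CPM in aged and 32.5 CPM in young cells and Csf2 with 22.1 and 33.7 CPM, where 4.25% of all measured genes did, so the count is no result about the list. In NK-like cells 1 of 16 measured regulators stood apart, where 4.3% of all measured genes did, so this count too is no result about the list. It was Ifng, which encodes interferon-gamma, with 153 CPM in the aged and 63.5 CPM in the young pool.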

How the data were processed

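Single-cell 3' expression libraries of an aged and a young matrix pool (1 library per group, so no test between them) and their antibody libraries were read. The deposited values are UMI counts per gene and barcode, made by the authors with Cell Ranger 6.0.0 against GRCh38 and mm10, per the submitters' processing notes; the files hold whole-number counts with no normalization.

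A barcode was taken as human or mouse with at least 90% of its UMIs from that species, 500 UMIs, 300 genes, at most 20% mitochondrial UMIs and a Scrublet score under 0.25 (expected doublet rate 0.1, seed 1); 172 aged and 123 young human and 1166 aged and 1045 young mouse barcodes were removed as doublets. Cells were scaled to 10000, log-transformed, and clustered on 2000 variable genes, 30 components and 15 neighbours (Leiden resolution 1; scanpy 1.11.5, leidenalg 0.10.2, scikit-learn 1.9.0, Python 3.11.15). Host clusters of 20 or more cells were named from marker lists. Counts were summed per class or state and pool and given as CPM of the species' own UMIs, for classes with at least 100 and states with at least 50 cells per pool, with exact Poisson or binomial 95% intervals (scipy 1.17.1). Depth was 77321298 aged and 80486385 young human UMIs, and 71000331 aged and 65136469 young mouse UMIs. Depth gives the precision shown by the intervals, which leave out variation between animals.

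The members, gene lists and rules were chosen with earlier results of these data known. All 9 members are named; from each list, genes at the ends of the ratio or apart by 1.5-fold, and for likeness up to 3 genes; other named list members were chosen after their values were seen. The 1.5-fold rule was tested on simulated class sums, and the summing of cells was not. Alternatives were scaling, low-level filters, species purity, doublet and mitochondrial filters, clustering resolution, clustering without the members and thinning to 1000 UMIs; the equal state mix, leaving out S100a8- and S100a9-high macrophage-like cells, barcodes at least 99% of one species and leaving out shared barcodes were added after seeing the data. Mouse hashing tags were not used because no host cell could be assigned to one.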

Additional observations from a re-analysis of the deposited data

Results flagged for a closer look

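Antibodies to 4 of the proteins were in the antibody libraries, which the comparisons do not use. PD-L1 had 6 counts in the aged and 3 in the young pool, CD80 had 4 and 1, and CD172a (SIRP-alpha) had 4 and 3. CD86 had 53 counts in the aged and 50 in the young pool, in 49 and 43 barcodes, of which 26 in each pool were mouse. All 38 surface antibodies together had 1074 aged and 560 young counts, against 11913808 and 14154694 for the human hashing tags. At these counts no surface level of a member could be given, and nothing about the proteins follows from the low numbers. The PD-L1, CD80, CD86 and CD172a antibodies passed the count of 3 that a count of 0 allows in the aged pool, as did CD86 in the young pool.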

How the results depend on the processing

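No paired analysis was possible because each group has 1 expression library and no test was made. The 20 class ratios were recomputed in 177 pairs of ratio and setting, and under none of these did a ratio reach 1.5-fold; 161 moved by less than their counting interval, 16 by more, and 8 changed side of 1. The Cd274 ratio in neutrophil-like cells was 0.760 at 98% species purity, which kept 1677 aged and 1729 young cells, 0.849 scaled by TMM, 0.867 scaled by median of ratios, 0.965 with every cell weighted equally and 0.995 with an equal state mix. The Cd80 ratio there was 1.18 at 98% purity. The CD47 ratio lay between 0.881 and 0.936 when 1 tag set was left out. The cause of these shifts was not tested. Counts of genes apart with no CPM minimum and with 100 CPM were 113 and 2 in tumour cells (main 12), 232 and 3 in neutrophil-like (18), 201 and 22 in macrophage-like (102), 109 and 9 in monocyte-like (58) and 767 and 94 in fibroblast-like cells (250); with 100 CPM they were 51 in NK-like (142) and 55 in endothelial-like cells (242). They were 36 in neutrophil-like cells at 98% purity and 38 in monocyte-like cells without doublet removal. The highest over the lowest state for Cd274 was 17.1 and 26.8 in the aged pool (resolution 0.5 and 2) and 11.4, 20.9 and, without the members, 13.01 in the young pool. For CD47 it was 1.96 in the aged pool (0.5) and 3.73 in the young pool (2). Shares of neutrophil-like cells with a Cd274 UMI were 29.1% aged and 32.6% young unthinned and 19.5% and 20.9% at 1000 UMIs. Those of tumour cells with CD47 were 76.6% and 77.2%, and 6.89% and 7.19%.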

Other observations

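Nectin and galectin ligands, CD47 partners and inhibitory receptors outside the 9 genes gave further values. Galectin-3 (LGALS3) had 691 CPM in aged and 649 CPM in young tumour cells, and NT5E, the ectoenzyme that makes adenosine, had 18.9 and 22.1 CPM. In neutrophil-like cells the inhibitory receptor Lilrb4a had 1122 CPM in the aged and 1102 CPM in the young pool, and Nt5e had 28.0 and 19.7 CPM. In NK-like cells the receptor Cd160 had 57.9 CPM in the aged and 103 CPM in the young pool, on 247 aged and 143 young cells. There 1 of 7 measured genes of its list stood apart, and 4.3% of all measured genes did, so the count is no result about the list. In monocyte-like cells 7 of 17 measured interferon genes were lower in the aged pool, with a list median of -0.46 on the log2 scale beside 0.01 over all measured genes, of which 1.12% stood apart in either direction. Among the 7 were Rsad2 with 106 CPM in aged and 211 CPM in young cells and Cxcl10 with 117 and 188 CPM, while Cd274 there had 48.6 and 49.2 CPM.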
